A study of Mus musculus with 3 samples.

Results

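The 8 secreted antagonists of Wnt signaling Wif1, Sfrp1, Sfrp2, Sfrp4, Frzb, Sost, Dkk2 and Dkk3 were followed through the cells of the mouse ascending aorta. They were taken by symbol from the 32285 genes listed in each library, and all 8 were found in every library. The set was chosen by the measured level of Wif1, which had been seen to be lower in the smooth muscle cells (SMCs) of the mutant, so that contrast is given as a description of Wif1 and no more. Single-cell suspensions came from male C57BL/6J mice at P45 and were sequenced as 3 droplet libraries, each from pooled mice. The first was WT, the second was homozygous for the hypomorphic Fbn1 allele mgR (Fbn1mgR/mgR, here mgR), which lowers fibrillin-1 and models severe Marfan syndrome, and the third was of the same genotype with 0.6 g/L losartan in the drinking water from P16 (mgR-LOS). Losartan blocks the angiotensin II type 1 receptor. Whether the untreated mutant mice were given a vehicle is not in the labels, and the same mgR library served in 2 of the 3 comparisons. With 1 library per condition no test between conditions was possible. All intervals below are at 95% and cover counting error only, and differences between mice, digestions or sequencing runs cannot be told apart from those between conditions. Intervals of levels and ratios also leave out the spread of a gene over barcodes.

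Wnt ligands bind Frizzled receptors together with the coreceptors Lrp5 or Lrp6, and in the canonical branch this stabilizes beta-catenin, which then acts with TCF and LEF factors in the nucleus. The antagonists described here are released by cells and act outside them. Wif1 binds Wnt ligands through its WIF domain, and the Sfrp family, to which Frzb belongs, binds them through a domain resembling that of the Frizzled receptors. Sost (sclerostin) and Dkk2 bind Lrp5 and Lrp6 instead. Dkk3 is a divergent member of the Dickkopf family that does not act on Lrp5 and Lrp6 as the others do. Sclerostin is best known as an osteocyte product that restrains bone formation, and it is also made by aortic smooth muscle.

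The WT, mgR and mgR-LOS libraries held 7858, 10657 and 14663 barcodes with 83338726, 123956320 and 121436873 unique molecular identifiers (UMIs), of which 5361, 8076 and 12721 barcodes passed the filter on genes and mitochondrial UMIs. Barcodes were named by summed marker levels, without any of the 8 genes, as SMC-like (3662, 3174 and 7961 barcodes in WT, mgR and mgR-LOS), fibroblast-like (1296, 2377 and 3031), endothelial (EC-like; 100, 210 and 180) and immune-like (137, 1694 and 792). The 6 SMC markers summed to between 49020 and 52540 CPM (UMIs per 1000000 UMIs of the population) in SMC-like barcodes of the 3 libraries, the 7 fibroblast markers to between 19362 and 25402 in fibroblast-like barcodes, and the 7 EC markers to between 5209 and 5727 in EC-like barcodes. The SMC-like barcodes of mgR-LOS were shallower, with a median of 8537 UMIs against 14373 in WT and 15161 in mgR. Pairs of libraries shared 22 to 46 cell barcodes. Fbn1, read as a check of the labels, stood at 251 CPM in WT, 80.2 in mgR and 68.2 in mgR-LOS in SMC-like cells. UMIs were counted at the 3′ end of transcripts, so CPM was not divided by gene length.

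All members are protein-coding genes on GRCm38. Among the proteins that bind Wnt ligands, Wif1 (ENSMUSG00000020218) lies at chr10:121033960-121100650, Sfrp1 (ENSMUSG00000031548) at chr8:23411502-23449632, Sfrp2 (ENSMUSG00000027996) at chr3:83766321-83774316 and Sfrp4 (ENSMUSG00000021319) at chr13:19623104-19632994, all on the plus strand, and Frzb (ENSMUSG00000027004) at chr2:80411970-80447625 on the minus strand. Sost (ENSMUSG00000001494) lies at chr11:101962458-101967015 on the minus strand, Dkk2 (ENSMUSG00000028031) at chr3:132085292-132180304 on the plus strand and Dkk3 (ENSMUSG00000030772) at chr7:112116017-112159057 on the minus strand. In the GENCODE annotation Sfrp2 overlaps Gm26771 on the opposite strand, and the other 7 overlap no other gene.

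RefSeq promoter windows on GRCm38.p6 were matched for 5 members, Wif1, Sfrp2, Frzb, Sost and Dkk2. Those of Wif1, Sost and Dkk2 are shown because these genes had the most different distributions, Wif1 in fibroblasts and SMCs, Sost in SMCs and Dkk2 in ECs. Each sequence runs 5′ to 3′ on the strand of its gene and ends just before the GENCODE start, covering chr10:121033754-121033959 for Wif1 (206 bases, plus strand), chr11:101967016-101967265 for Sost (250 bases, minus strand) and chr3:132085042-132085291 for Dkk2 (250 bases, plus strand), and capitals mark TATAAA on either strand.
Wif1: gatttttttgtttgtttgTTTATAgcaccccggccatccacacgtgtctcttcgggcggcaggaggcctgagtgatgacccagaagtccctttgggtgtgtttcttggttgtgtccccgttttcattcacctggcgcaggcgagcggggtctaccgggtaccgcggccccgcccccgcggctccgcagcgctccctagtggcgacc
Sost: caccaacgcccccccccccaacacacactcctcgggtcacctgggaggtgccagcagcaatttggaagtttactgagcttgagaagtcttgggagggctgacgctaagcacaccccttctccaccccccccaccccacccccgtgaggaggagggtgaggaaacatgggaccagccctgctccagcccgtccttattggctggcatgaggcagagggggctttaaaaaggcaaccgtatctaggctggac
Dkk2: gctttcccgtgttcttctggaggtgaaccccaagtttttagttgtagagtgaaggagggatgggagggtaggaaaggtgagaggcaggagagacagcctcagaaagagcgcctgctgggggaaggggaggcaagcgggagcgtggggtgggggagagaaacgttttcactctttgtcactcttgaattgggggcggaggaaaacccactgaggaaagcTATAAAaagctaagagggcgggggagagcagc
TATAAA was found 32 bases before the start of Dkk2 on its own strand and 232 bases before the RefSeq start of Wif1 on the opposite strand, and it was in 13.0% of the 27025 mouse promoter windows of 250 bases, searched on both strands. The sequence CTTTGA, the core bound by TCF and LEF factors, was found in the Frzb window alone among these 5, 95 bases before its RefSeq start, and in 14.05% of all windows. Only the first 21 bases of the Frzb window lie before its GENCODE start, so this match is inside the gene as annotated there. A CArG box, the site of serum response factor, was in none of the 5 windows and in 1.40% of all.

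The antagonists differed in the cell classes that carried them, as the plot of levels by cell class shows. In WT, SMC-like cells held 98.4% of the Sost UMIs of all barcodes that passed the filter, and fibroblast-like cells held 73.1% of those of Frzb, 78.2% of those of Sfrp1 and 64.6% of those of Sfrp4. Wif1 was shared, with 50.5% of its UMIs in SMC-like and 47.3% in fibroblast-like cells, and so were Dkk3, with 55.4% and 41.9%, and Sfrp2, with 59.5% and 37.5%. These shares depend on how many cells of each class were captured. Per UMI, the WT level of Wif1 was 579 CPM in fibroblast-like and 173 CPM in SMC-like cells, and that of Dkk3 was 630 and 234 CPM. Dkk2 was seen at 58.8 CPM in EC-like cells, from 46 UMIs, and at 1.997 CPM in fibroblast-like cells, and it had 2 UMIs in all 3662 SMC-like barcodes.

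Immune-like cells served as the measure of free RNA, since these genes are not expected there. Over the 3 libraries they carried Wif1 at 2.03 to 7.69 CPM, Sfrp2 at 4.27 to 9.63 CPM, Dkk3 at 9.40 to 14.5 CPM and Sost at 22.2 to 32.0 CPM. Sfrp1, Sfrp4, Frzb and Dkk2 reached at most 4.44 CPM there. Sost in fibroblast-like cells, at 24.5 to 27.2 CPM, lay within the range of the immune-like cells and did not exceed it. In mgR, single barcodes held up to 44 Sost UMIs in fibroblast-like and 30 in immune-like cells. Whether these UMIs were free RNA was not tested.

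**Figure D1:**
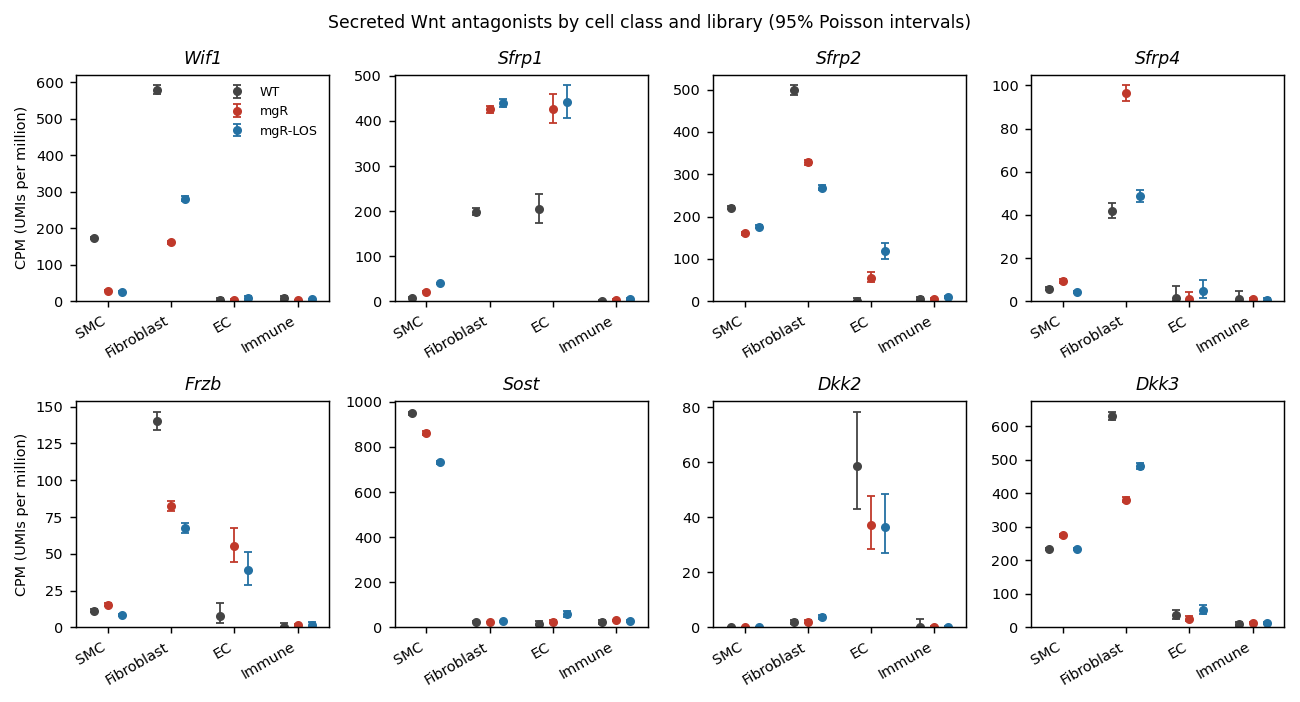
CPM of each of the 8 antagonists (vertical axes, each from 0) in SMC-like, fibroblast-like, EC-like and immune-like cells of the WT (grey), mgR (red) and mgR-LOS (blue) libraries; points are pooled levels and bars 95% Poisson intervals. Sost lies in SMC-like cells, where it ran from 733 to 948 CPM, while Wif1 in SMC-like cells was at 173 CPM in WT and below 30 CPM in both mutant libraries.

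Wif1 (Wnt inhibitory factor 1) was lower in SMC-like cells of both mutant libraries. Its level was 173 CPM (170 to 177) in WT, 29.2 CPM (27.7 to 30.8) in mgR, while mgR-LOS had 26.2 CPM (25.04 to 27.4). The WT library stood far above the 2 mutant libraries, which lay close together. The ratio by which the set was chosen, mgR over WT, came to 0.169 (0.160 to 0.179). That of mgR-LOS over WT was 0.151 (0.144 to 0.159). That of mgR-LOS over mgR was 0.897 (0.837 to 0.962), and its direction turned when barcodes with a second lineage were kept (1.13) or when SMC subtypes were weighted as in WT (1.02).

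Fewer SMC-like barcodes carried a Wif1 UMI in the mutant. With every barcode thinned to 2000 UMIs, which left out 78, 37 and 88 of them, the share was 25.7% (24.3 to 27.2) in WT, 5.58% (4.80 to 6.44) in mgR and 4.61% (4.16 to 5.10) in mgR-LOS, by exact binomial intervals. Without thinning it was 67.7%, 24.0% and 15.98%, at median depths of 14373, 15161 and 8537 UMIs. The same thinned share in immune-like cells was 3.05%, 0.553% and 0.814%, at median depths of 8180, 7648.5 and 6125 UMIs, so the mutant SMC shares stayed above that background. In WT the gene was spread over many SMC-like cells, with a median of 1.04 UMIs per 10000 and 39.3% of its UMIs in the top 10% of barcodes. In mgR the median was 0 and the top 10% held 68.7%. Both values move with the level, so no difference in spread over cells is read from them.

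The difference was seen in every SMC subtype that could be gated on other genes. These subtypes divide the same SMC-like barcodes whose Wif1 level was behind the choice of the set. Their values are a description and no further support. SMC-like barcodes were divided by Acan and Susd5 (matrix genes), by Rbp4 (retinol binding protein), by Tnnt2 and Tcap (sarcomere genes), by Vcam1 and Spp1 (markers of modulated SMCs) and by Rgs5 (a mural cell gene), and the rest passed no gate. WT levels of Wif1 ran from 126 CPM in Vcam1 Spp1 cells, of which WT had only 4, to 228 CPM in Rbp4 cells. Those of the Rgs5, Tnnt2 Tcap and ungated cells, at 135, 148 and 148 CPM, did not differ beyond their intervals. In mgR they ran from 12.3 CPM in Rgs5 cells to 32.8 CPM in Acan Susd5 cells, and in mgR-LOS from 22.3 to 32.3 CPM, so neither mutant library overlapped WT in any subtype. The ratio of mgR over WT ran from 0.0907 (0.0362 to 0.189) in Rgs5 cells to 0.196 (0.176 to 0.219) in ungated cells.

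The shares of SMC-like barcodes assigned to the gates differed as well. Rbp4 cells were 20.2% of them in WT, 1.95% in mgR and 2.76% in mgR-LOS, and Acan Susd5 cells 21.2%, 53.3% and 23.1%. Rbp4 itself was at 112, 41.5 and 36.9 CPM in ungated SMC-like cells, so fewer barcodes past this gate need not mean fewer cells of a type. When the mgR subtypes were weighted by their shares of UMIs in WT, the SMC ratio of Wif1 was 0.152. In that value the mgR level of Rbp4 cells came from 62 barcodes. The summed level of the fibroblast gate list (Dpt, Serpinf1, Clec3b, Pdgfra and Lum, all 5 with UMIs) in SMC-like cells was 53.9 CPM in WT, 104 in mgR and 128 in mgR-LOS, and that of the 7 fibroblast markers 3432, 4404 and 3234 CPM. Among SMC-like barcodes without a UMI of these 5 genes, an alternative added after the data were seen, Wif1 stood at 180 CPM in WT, 31.2 in mgR and 26.1 in mgR-LOS.

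Fibroblast-like cells had less Wif1 in the mutant too, and there the losartan library lay between the others. The level was 579 CPM (567 to 592) in WT, 162 CPM (157 to 166) in mgR, while mgR-LOS had 281 CPM (274 to 287). The ratio was 0.279 (0.269 to 0.289) for mgR over WT, 1.74 (1.67 to 1.80) for mgR-LOS over mgR and 0.484 (0.469 to 0.500) for mgR-LOS over WT. In WT most of it, 6089 of 8409 UMIs, lay in fibroblasts rich in Comp, Chad and Fmod, which encode a cartilage matrix protein and small leucine-rich proteins, and these held 2006 of 4858 UMIs in mgR and 2371 of 7067 in mgR-LOS. In these cells it was at 1684 CPM in WT, 746 in mgR and 922 in mgR-LOS, with ratios of 0.443 (0.421 to 0.466) for mgR over WT and 1.24 (1.16 to 1.31) for mgR-LOS over mgR.

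Pi16 and Gdf10 Hsd11b1 fibroblasts carried much less, and ungated fibroblasts lay between these and Comp Chad Fmod cells. In mgR and mgR-LOS more of the Wif1 UMIs lay in ungated fibroblasts than in Comp Chad Fmod cells. Pi16 cells (the adventitial type, gated on Pi16, Dpp4, Sema3c and Cd55) had 16.4, 5.87 and 12.8 CPM, and Gdf10 Hsd11b1 cells 5.14, 8.69 and 27.1 CPM in WT, mgR and mgR-LOS. These low levels lean in part on single barcodes. In mgR-LOS 1 Gdf10 Hsd11b1 barcode held 63 Wif1 UMIs and 1 Pi16 barcode 40, and in WT 1 Pi16 barcode held 26. Immune-like cells had 2.03 to 7.69 CPM over the libraries, and the WT level of Gdf10 Hsd11b1 cells did not exceed that background. Ungated fibroblasts had 481, 345 and 490 CPM, so there WT and mgR-LOS did not differ beyond their intervals (ratio 1.02, 0.968 to 1.07).

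The share of Comp Chad Fmod cells among fibroblast-like barcodes was 19.1% in WT, 8.37% in mgR and 9.37% in mgR-LOS, and the summed Comp, Chad and Fmod level of all fibroblast-like cells moved with Wif1 between WT and mgR, at 1946, 644 and 650 CPM. Weighted by the WT subtype shares, the fibroblast ratio of Wif1 for mgR over WT was 0.517 in place of 0.279, and that of mgR-LOS over mgR 1.32 in place of 1.74. Thinned to 2000 UMIs, 63.8% (57.5 to 69.8) of Comp Chad Fmod barcodes in WT had a Wif1 UMI, 40.3% (33.4 to 47.5) in mgR and 37.5% (31.7 to 43.5) in mgR-LOS. Some single fibroblast-like barcodes held a great deal of it, up to 279 UMIs in WT, 113 in mgR and 123 in mgR-LOS.

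**Figure D2:**
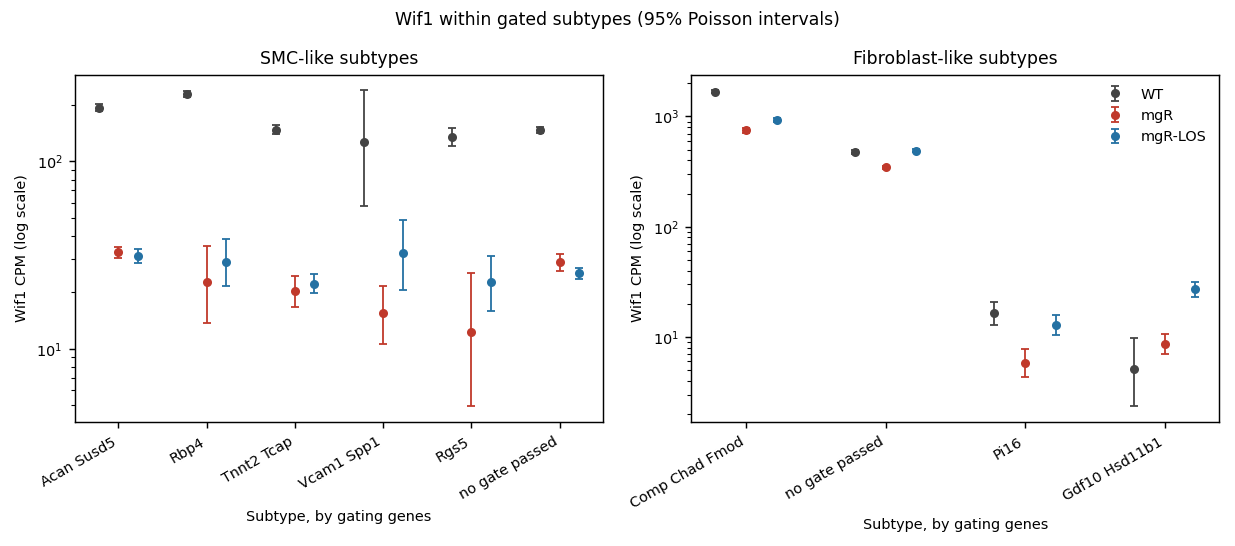
Wif1 CPM (log axes) in SMC-like subtypes (left) and fibroblast-like subtypes (right), named by their gating genes, in the WT (grey), mgR (red) and mgR-LOS (blue) libraries, with 95% Poisson intervals. WT lies above both mutant libraries in each of the 6 SMC groups, while in fibroblasts the level ranges from 1684 CPM in Comp Chad Fmod cells of WT to 5.14 CPM in Gdf10 Hsd11b1 cells of WT.

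Sfrp1 (secreted frizzled-related protein 1) went the other way. In fibroblast-like cells it was at 199 CPM (192 to 206) in WT, 426 CPM (419 to 433) in mgR, while mgR-LOS had 440 CPM (431 to 448). Both mutant libraries lay above WT, and mgR over WT gave 2.14 (2.06 to 2.23). The SMC panel in these cells was at 1368, 1866 and 1839 CPM, and its part in the difference was not tested. In WT the gene was highest in Gdf10 Hsd11b1 fibroblasts, at 463 CPM, followed by Pi16 cells at 248.7 CPM, ungated cells at 156 CPM and Comp Chad Fmod cells at 63.9 CPM. The ratio of mgR over WT took the reverse order, at 1.205 (1.12 to 1.30), 1.504 (1.40 to 1.61), 2.38 (2.19 to 2.59) and 2.77 (2.36 to 3.26). Gdf10 Hsd11b1 cells were 14.0% of fibroblast-like barcodes in WT, 38.8% in mgR and 26.8% in mgR-LOS, and at WT subtype shares the fibroblast ratio was 1.74.

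In SMC-like cells Sfrp1 was scarce but differed in the same direction. It stood at 7.69 CPM (6.96 to 8.49) in WT, 20.6 CPM (19.3 to 21.9) in mgR, while mgR-LOS had 39.7 CPM (38.2 to 41.1). The 3 libraries did not overlap, and mgR-LOS was the farthest from WT, with a ratio of 5.15 (4.64 to 5.74) that was the 13th highest of the 7399 genes with a mean of at least 10 CPM over the 3 libraries. The WT level of Sfrp1 was below 10 CPM, so the gene met that limit through the mutant libraries, where it was higher. Such a filter favors a high rank, and nothing is read from the rank. The ratio was 2.68 (2.38 to 3.01) for mgR over WT and 1.93 (1.79 to 2.07) for mgR-LOS over mgR. The fibroblast gate list in SMC-like cells had the same order, at 53.9, 104 and 128 CPM, and so had the 7 immune markers, at 7.11, 24.4 and 29.4 CPM, and the 5 erythroid markers, at 6.88, 14.96 and 33.2 CPM, while the 7 fibroblast markers were at 3432, 4404 and 3234 CPM. Among SMC-like barcodes with no UMI of that list Sfrp1 was at 6.41, 15.7 and 35.3 CPM, and mgR-LOS over WT gave 5.50. The part of the immune and erythroid markers was not tested. The thinned share of SMC-like barcodes with a Sfrp1 UMI was 1.95% in WT, 4.34% in mgR and 7.13% in mgR-LOS, against 0 of 131 immune-like barcodes in WT (a floor of 3 counts is 2.29%, and the exact interval reaches 2.78%), 0.615% in mgR and 1.36% in mgR-LOS. Among subtypes, Tnnt2 Tcap cells had the most Sfrp1 in each library, apart from the 4 WT barcodes of the Vcam1 Spp1 gate that had none, at 13.7, 40.9 and 66.2 CPM.

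Sfrp2, which also binds Wnt ligands, was present in SMC-like and fibroblast-like cells. In SMC-like cells its level was 221 CPM (217 to 225) in WT, 160 CPM (157 to 164) in mgR, while mgR-LOS had 176 CPM (173 to 179). WT was the highest, and mgR over WT gave 0.725 (0.704 to 0.746). This ratio was 0.977 at WT subtype shares, and within subtypes it ran from 0.472 (0.376 to 0.586) in Rgs5 cells to 1.31 (1.17 to 1.47) in Rbp4 cells, leaving aside Vcam1 Spp1 cells with 4 WT barcodes. The mgR library had 62 Rbp4 and 47 Rgs5 barcodes, and their top 10% held 55.9% and 83.7% of the Sfrp2 UMIs. The value at WT subtype shares also used these few barcodes. Among SMC-like barcodes without a fibroblast gate UMI the Sfrp2 ratio of mgR over WT was 0.591. The small difference between mgR-LOS and mgR in SMC-like cells, a ratio of 1.10 (1.07 to 1.13), changed direction when at most 5% mitochondrial UMIs were allowed (0.864) and at WT subtype shares (0.915).

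In fibroblast-like cells Sfrp2 stood at 498 CPM (487 to 510) in WT, 328 CPM (322 to 335) in mgR, while mgR-LOS had 268 CPM (262 to 275). The levels went down in that order, with ratios of 0.658 (0.639 to 0.679) for mgR over WT and 0.538 (0.521 to 0.557) for mgR-LOS over WT. Comp Chad Fmod cells had 1042, 607 and 702 CPM. Pi16 and Gdf10 Hsd11b1 cells had 319 and 234 CPM in WT, and their ratios of mgR over WT were 0.906 (0.848 to 0.968) and 1.01 (0.911 to 1.12). At WT subtype shares the fibroblast ratio was 0.801.

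Sfrp4 was a fibroblast gene that stood out in the mgR library. In fibroblast-like cells it was at 42.0 CPM (38.7 to 45.5) in WT, 96.4 CPM (93.0 to 100.02) in mgR, while mgR-LOS had 48.5 CPM (45.8 to 51.3). The mgR library was well above the others, with a ratio of 2.30 (2.10 to 2.51) over WT, and mgR-LOS over mgR gave 0.503 (0.470 to 0.538). The mgR level was the highest in all 4 fibroblast groups, although in Comp Chad Fmod cells its interval overlapped that of mgR-LOS. The largest contrast was in Gdf10 Hsd11b1 cells, with 20.6, 90.01 and 27.4 CPM, and the highest level in Pi16 cells, with 94.7, 154 and 100.3 CPM. At WT subtype shares the ratio of mgR over WT was 2.12. In SMC-like cells it was at 4.31 to 9.21 CPM, below the limit of 10 CPM for a comparison with all genes, and mgR was again the highest.

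Frzb (also called Sfrp3) was lower in mutant fibroblasts. It was at 140 CPM (134 to 147) in WT, 82.5 CPM (79.3 to 85.8) in mgR, while mgR-LOS had 67.4 CPM (64.2 to 70.7). The libraries did not overlap, and mgR over WT gave 0.588 (0.554 to 0.624). Comp Chad Fmod cells had the highest levels, at 324, 279 and 190 CPM, and their ratio was 0.863 (0.786 to 0.946). At WT subtype shares the ratio over all fibroblast-like cells was 0.847. In SMC-like cells Frzb was at 11.5, 15.4 and 8.64 CPM, and mgR over WT was 1.33 (1.19 to 1.49). Without barcodes that had a UMI of the fibroblast gate list this ratio was 0.925, below 1, while it was 1.65 when at most 5% mitochondrial UMIs were allowed and 2.21 at WT subtype shares, both past 1.5-fold. The 5% limit kept 597 of the 3662 SMC-like barcodes of WT. In the value at WT subtype shares, the mgR level of Rbp4 cells came from 62 barcodes.

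Sost (sclerostin) was abundant in SMC-like cells of every library. It was at 948 CPM (940 to 957) in WT, 861 CPM (853 to 870) in mgR, while mgR-LOS had 733 CPM (726 to 739). The order was WT, mgR, mgR-LOS, and the differences were small next to those of Wif1, with ratios of 0.908 (0.897 to 0.920) for mgR over WT and 0.851 (0.840 to 0.862) for mgR-LOS over mgR. Thinned to 2000 UMIs, 71.5%, 65.5% and 63.2% of SMC-like barcodes had a Sost UMI. The level was highest in Acan Susd5 cells, at 1350, 976 and 1028 CPM, where mgR over WT was 0.723 (0.708 to 0.738). That gate took 21.2% of SMC-like barcodes in WT, 53.3% in mgR and 23.1% in mgR-LOS, so the cells compared need not be alike. At WT subtype shares the SMC ratio of Sost for mgR over WT was 0.827. Sost was also lower in Rgs5 cells of the mutant, at 996 CPM in WT against 523 in mgR, from 47 barcodes, and 549 in mgR-LOS.

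Dkk3 differed between SMC-like and fibroblast-like cells. In SMC-like cells it was at 234 CPM (229 to 238) in WT, 274 CPM (270 to 279) in mgR, while mgR-LOS had 234 CPM (231 to 238). WT and mgR-LOS could not be told apart, with a ratio of 1.00 (0.981 to 1.03), and mgR over WT was 1.17 (1.15 to 1.204). In fibroblast-like cells it was at 630 CPM (617 to 643) in WT, 381 CPM (374 to 388) in mgR, while mgR-LOS had 481 CPM (473 to 490). Here mgR was the lowest, with a ratio of 0.605 (0.588 to 0.621) over WT and of 1.26 (1.23 to 1.30) for mgR-LOS over mgR. At WT subtype shares the fibroblast ratio of mgR over WT was 0.822, and in Comp Chad Fmod cells, where Dkk3 was at 1248, 1073 and 1179 CPM, it was 0.860 (0.820 to 0.901). In Gdf10 Hsd11b1 cells it was on the other side, at 1.35 (1.21 to 1.504).

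Set against all genes, the members were counted as different at a ratio of at least 1.5 or at most its inverse, among genes with a mean of at least 10 CPM over the 3 libraries. Sfrp1 in SMC-like cells and Sfrp2 and Frzb in EC-like cells were below 10 CPM in WT and met this mean through the mutant libraries. The list of members was drawn up with earlier results of these data known. The counts in every cell class are therefore descriptions, and no enrichment is read from them. In SMC-like cells 6 of the 8 had that level. For mgR over WT, 1 was higher (Sfrp1) and 1 lower (Wif1, the gene behind the choice), where 4.64% of all 7399 genes were higher and 3.42% lower, and the other 4, Sfrp2, Frzb, Sost and Dkk3, were within the fold, although Frzb was at 1.65 with at most 5% mitochondrial UMIs, 2.21 at WT subtype shares and 0.925 without fibroblast gate UMIs. In the losartan library against mgR, Sfrp1 was higher (3.62% of all genes) and Frzb lower (3.15%), and against WT, Sfrp1 was higher (4.38%) and Wif1 lower (2.77%), where Wif1 again rests on the WT level behind the choice and nothing is read from its count. The median log2 ratio of all tested genes was between -0.02 and 0.03.

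In fibroblast-like cells 7 of the 8 had that level, all but Dkk2. For mgR over WT, 2 were higher (Sfrp1 and Sfrp4, where 6.14% of all 8166 genes were higher) and 4 lower (Wif1, Sfrp2, Frzb and Dkk3, where 3.69% were lower), and Sost was within the fold. Of the 4 that were lower, Frzb, Sfrp2 and Dkk3 came within the fold at WT subtype shares. In the losartan library against mgR, Wif1 was higher (3.06% of all genes) and Sfrp4 lower (3.18%). Against WT, Sfrp1 was higher (5.69%) and Wif1, Sfrp2 and Frzb were lower (3.59%). Because the members were chosen with earlier results of these data known, these counts are not read as an excess over the shares of all genes.

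**Figure D3:**
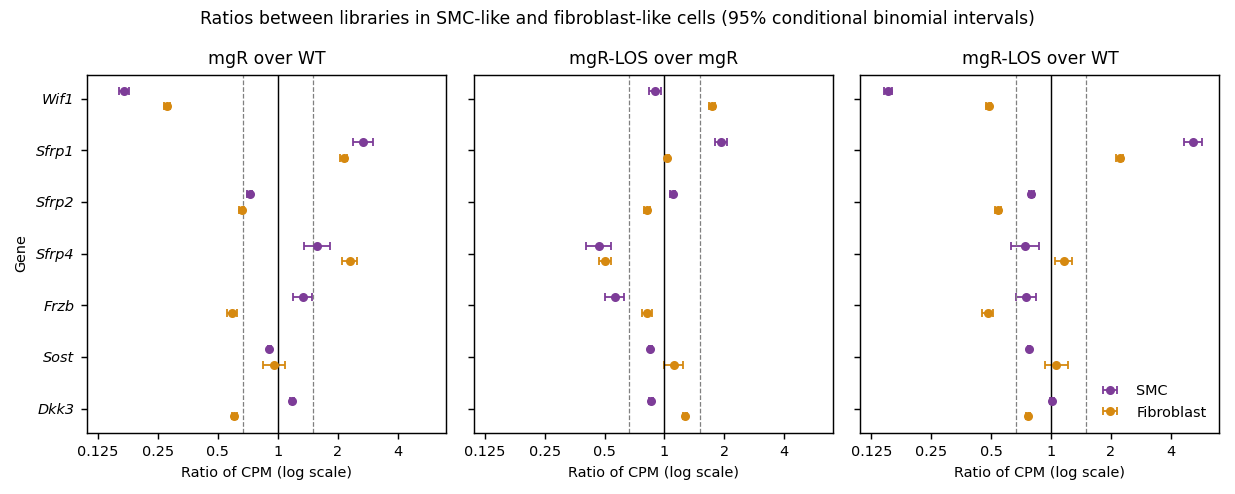
Ratio of CPM (log axes) for 7 antagonists in SMC-like (purple) and fibroblast-like cells (orange) for mgR over WT, mgR-LOS over mgR and mgR-LOS over WT, with 95% conditional binomial intervals. The solid line marks 1 and the dashed lines a fold of 1.5 either way; Wif1 lies at 0.169 and 0.279 for mgR over WT, Sfrp1 lies at 2.68 and 2.14, and the SMC ratio of Frzb was on the other side of 1 (0.925) without barcodes that had a fibroblast gate UMI.

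EC-like cells held Sfrp1 and Dkk2, and in the mutant libraries Sfrp2 and Frzb. Of these, Sfrp1, Sfrp2 and Frzb were not particular to them, since fibroblast-like cells carried these genes at similar or higher levels. In EC-like cells Sfrp1 was at 205 CPM (174 to 239) in WT, 426 CPM (396 to 459) in mgR, while mgR-LOS had 442 CPM (406 to 479). Luminal cells (gated on Vwf, Bmx, Sox17, Edn1 and Gja5) held nearly all of it, with 158 of 160, 714 of 720 and 569 of 580 UMIs. In luminal cells, 33, 88 and 79 barcodes, its level was 617, 1147 and 1044 CPM, with a ratio of 1.86 (1.56 to 2.22) for mgR over WT. The thinned share of luminal barcodes with a Sfrp1 UMI was 43.3% (25.5 to 62.6), 52.7% (40.7 to 64.4) and 48.7% (37.0 to 60.4), and these intervals overlapped.

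Sfrp2 was hardly seen in WT endothelium. EC-like cells had 1 UMI in WT, 94 in mgR and 155 in mgR-LOS, or 1.28, 55.7 and 118 CPM, and the ratio of mgR over WT was 43.5 with an interval of 7.62 to 1737. Luminal cells had 0, 91 and 148 UMIs. Against a floor of 3 counts set for WT (11.7 CPM) Sfrp2 was 12.5-fold higher in mgR and 23.2-fold higher in mgR-LOS. These folds depend on that floor and are not bounds. Thinned, 0 of 30 luminal barcodes in WT had a Sfrp2 UMI, for which a floor of 3 counts is 10.0% and the exact interval reaches 11.6%, against 18.9% (10.7 to 29.7) in mgR and 22.4% (13.6 to 33.4) in mgR-LOS, so the WT interval overlapped that of mgR. The immune-like share was 0.763%, 1.17% and 1.90%. A few barcodes carried much of it, since 87.2% of the luminal Sfrp2 UMIs of mgR-LOS lay in the top 10% of barcodes and 1 barcode had 39. When up to 20% mitochondrial UMIs were allowed, mgR over WT was 2.37 and mgR-LOS over WT 5.04 in all EC-like cells. The summed fibroblast gate list in EC-like cells was 182, 112 and 189 CPM, and without barcodes that had a UMI of it Sfrp2 was at 2.05, 66.1 and 124 CPM. The SMC panel in EC-like cells was at 1044, 1324 and 1509 CPM, and its part in the Sfrp2 values was not tested.

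Frzb was also higher in the endothelium of both mutant libraries than in WT. Luminal cells had 5, 88 and 50 UMIs in WT, mgR and mgR-LOS, or 19.5, 141 and 91.7 CPM, with a ratio of 7.24 (2.99 to 22.9) for mgR over WT. Without EC-like barcodes that had a fibroblast gate UMI the level in all EC-like cells was 4.10, 51.6 and 30.3 CPM. In mgR luminal cells, 46.2% of the 39 barcodes with a Sfrp1 UMI also had a Frzb UMI and 30.8% a Sfrp2 UMI, against 8.57% and 5.71% of the 35 without, after thinning to 2000 UMIs.

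Dkk2, the Lrp5 and Lrp6 antagonist of these cells, was at 58.8 CPM (43.1 to 78.5) in WT, 37.3 CPM (28.7 to 47.7) in mgR, while mgR-LOS had 36.6 CPM (27.0 to 48.5). Its mgR over WT value was 0.634 (0.427 to 0.948), from 0.256 to 0.774 over the alternatives, and that of mgR-LOS over WT was 0.621 (0.406 to 0.952), from 0.301 to 0.733, so neither was past the fold under every alternative. In luminal cells it was on the other side, with 6, 46 and 13 UMIs and a ratio of 3.15 (1.34 to 9.04). In WT most of the Dkk2 of EC-like cells, 37 of 46 UMIs, came from 24 barcodes that passed no EC subtype gate, and the mgR library had 12 such barcodes with 7 UMIs. Of the Dkk2 UMIs of these 24 WT barcodes, 70.3% lay in the top 10% of barcodes, and 1 barcode had 15. In mgR luminal cells the top 10% held 93.5%, and 1 barcode had 15. The Dkk2 ratios of EC-like and luminal cells therefore rest on few barcodes. Sost in EC-like cells, at 16.6 and 26.1 CPM in WT and mgR, did not exceed the immune-like levels. In mgR-LOS it was above them, at 58.6 CPM, and 75.8% of its luminal UMIs there lay in the top 10% of barcodes. The SMC panel of EC-like cells was also highest in mgR-LOS, and its part in the Sost level was not tested. Dkk3 was at 24.9 to 52.5 CPM, and Wif1 and Sfrp4 had at most 10 UMIs in any library.

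At these small numbers of cells many genes were past the fold. Of the 6 antagonists with at least 10 CPM in EC-like cells, Sfrp1, Sfrp2, Frzb and Sost were higher in mgR than in WT, as were 12.4% of all 8447 genes, and Dkk2 was lower, as were 8.19%, although the interval of Sost (0.829 to 3.17) held 1 and its ratio was 0.878 with clusters within each library. In mgR-LOS against mgR, Sfrp2, Sost and Dkk3 were higher (8.86% of all genes) and 0 members lower (9.54%). In mgR-LOS against WT, Sfrp1, Sfrp2, Frzb and Sost were higher (12.9%) and Dkk2 lower (9.92%).

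**Figure D4:**
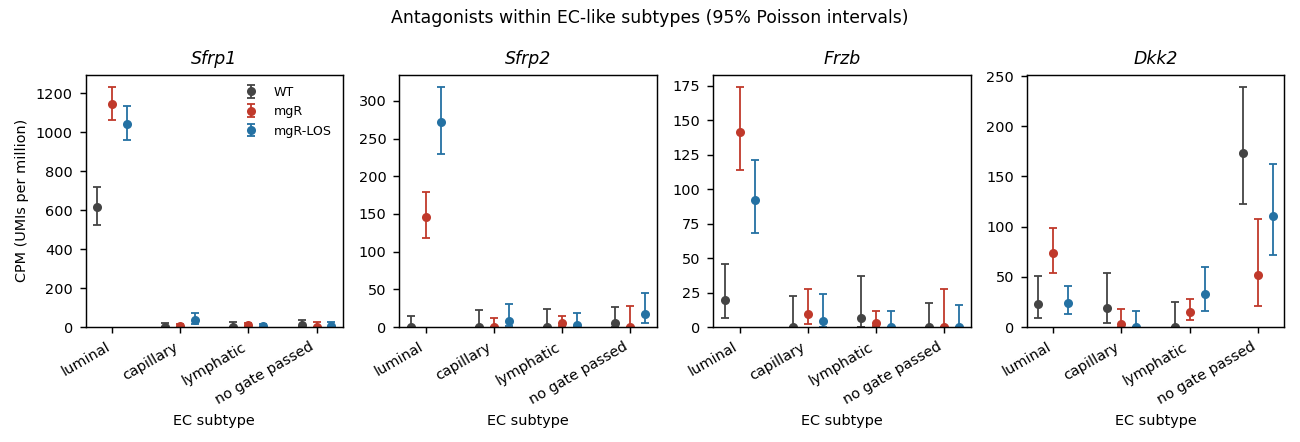
CPM (vertical axes from 0) of Sfrp1, Sfrp2, Frzb and Dkk2 in luminal, capillary, lymphatic and ungated EC-like cells of the WT (grey), mgR (red) and mgR-LOS (blue) libraries, with 95% Poisson intervals. Sfrp1, Sfrp2 and Frzb lie in luminal cells, where Sfrp2 had 0, 91 and 148 UMIs, while Dkk2 was highest in ungated cells of WT at 174 CPM.

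The rest of the pathway was read from a list of 81 other Wnt genes, ordered by role. In SMC-like cells 32 of them reached 10 CPM, and for mgR over WT 3 were higher and 0 lower. The 3 were Trabd2b, which encodes a membrane protease that inactivates Wnt ligands (44.6, 79.7 and 63.6 CPM in WT, mgR and mgR-LOS), Rspo3, a secreted enhancer of Wnt signaling (12.6, 21.7 and 26.9 CPM), and Ccn4, a matricellular Wnt target (2.93, 25.5 and 15.5 CPM). Against mgR, mgR-LOS had Ccn4 alone past the fold, on the low side. For mgR-LOS over WT, Rspo3, Ccn4 and the receptor gene Ror1 were higher and Lgr4, an R-spondin receptor, was lower. The most abundant ligand of SMC-like cells was Wnt16, at 55.4, 63.4 and 60.4 CPM, and the leading receptors Lgr6, Ryk and Fzd1, the secretion factor Wls and the intracellular genes Ctnnb1, Csnk1a1 and Gsk3b were within the fold for mgR over WT. Axin2, a feedback target of the canonical branch, was at 2.10 to 3.71 CPM and below the limit.

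In fibroblast-like cells 40 of the 81 reached 10 CPM, and for mgR over WT 6 were higher and 5 lower. Among ligands Wnt2 was higher, at 5.65, 21.9 and 13.5 CPM, and Wnt16 lower, at 22.7, 7.62 and 9.29 CPM, while Wnt5a, the most abundant, was at 172, 133 and 168 CPM. Of the receptors, Fzd1 and Fzd4 were higher and Lrp5 lower, with mgR over WT at 1.53, 1.51 and 0.616. Rspo3 was lower in mgR, at 65.6, 26.2 and 47.2 CPM, and so was Apcdd1, a membrane antagonist, at 51.0, 19.9 and 30.6 CPM. Among the Wnt target genes of the list Axin2 was lower, at 19.3, 7.39 and 12.3 CPM, and Ccn4, Ccnd1 and Myc were higher, with mgR over WT at 2.02, 1.51 and 1.55.

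Between mgR-LOS and mgR in fibroblast-like cells, 3 genes of the list were higher with losartan (Apcdd1, Rspo3 and Axin2) and 3 lower (Wnt2, Fzd1 and Ccn4), in a comparison that shares its mgR library with the one above. For mgR-LOS over WT, Wnt2 and Ccnd1 were higher and Apcdd1, Wnt9a, Wnt16 and Axin2 lower. In EC-like cells 28 genes of the list reached 10 CPM and for mgR over WT 3 were higher (Kremen1, Rspo3 and Fzd1) and 4 lower (Wnt4, Wnt9b, Pygo2 and Nkd1), at 13 to 56 WT UMIs for the lower and 4 to 8 for the higher, and the intervals of Kremen1, Fzd1 and Pygo2 held 1. In mgR-LOS, Wnt4, Lrp5 and Nkd1 were higher and Fzd6, Fzd8, Dvl1 and Myc lower than in mgR, and Kremen1, Rspo3, Fzd1 and Lrp5 higher and Wnt9b, Fzd5, Fzd6, Dvl1 and Myc lower than in WT. Of these, the intervals of Fzd8 and Dvl1 against mgR and of Kremen1, Rspo3, Fzd1, Fzd5, Dvl1 and Myc against WT held 1. The share of all genes past the same fold is given above for each class. The Wnt list was drawn up with earlier results of these data known, so its counts are descriptions and no enrichment is read from them. Ccn4 in SMC-like, Wnt2 in fibroblast-like and Rspo3 in EC-like cells were below 10 CPM in WT and met the limit through the mutant libraries.

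**Figure D5:**
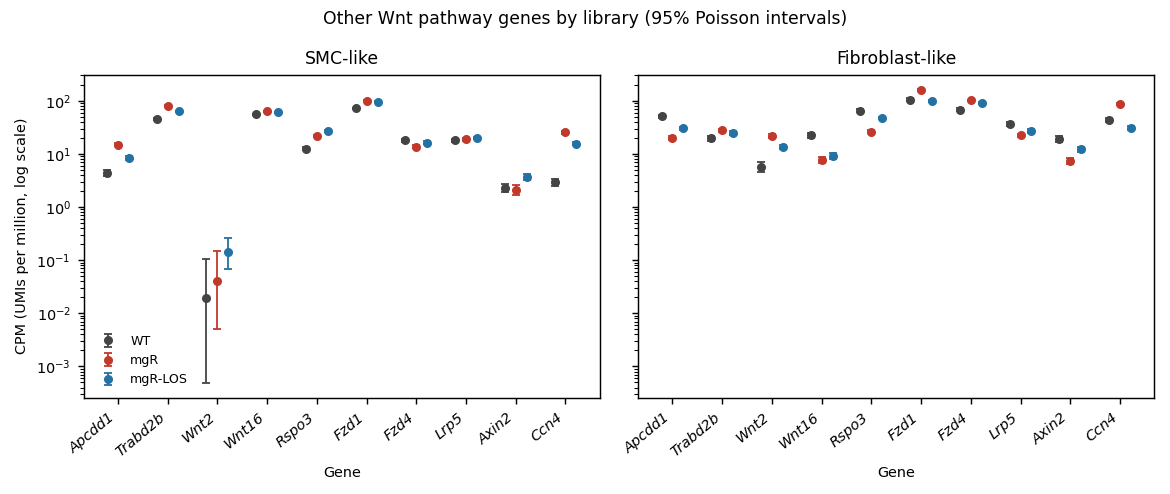
CPM (log axes) of 10 other Wnt genes in SMC-like (left) and fibroblast-like cells (right) of the WT (grey), mgR (red) and mgR-LOS (blue) libraries, with 95% Poisson intervals. In fibroblast-like cells Apcdd1, Rspo3 and Axin2 were lowest in mgR and Wnt2, Fzd1 and Ccn4 highest in mgR.

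Wif1 and Dkk3 were often found in the same barcodes, which did not hold for every pair of antagonists. After thinning to 2000 UMIs, 89.8% of the Comp Chad Fmod fibroblasts of WT with a Wif1 UMI also had a Dkk3 UMI, against 65.2% of those without. The shares were 87.3% and 64.1% in mgR and 91.3% and 70.3% in mgR-LOS, so the difference was seen in each library. In SMC-like cells the same shares lay closer together, at 37.5% and 34.0% in WT, 44.0% and 40.1% in mgR and 38.6% and 34.9% in mgR-LOS. Sfrp1 was rarer in Comp Chad Fmod cells with Wif1 than in those without. Its shares were 7.01% and 13.5% in WT, 15.2% and 30.8% in mgR and 27.2% and 30.2% in mgR-LOS. Those of Frzb were 37.6% and 49.4% in WT, 40.5% and 29.9% in mgR and 37.9% and 22.7% in mgR-LOS.

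Over 46 profiles of a population in a library, the genes whose log2(CPM + 1) followed each member most closely were named, among 7161 genes. These correlations are descriptions, since profiles share libraries, depth and cells. Wif1 was most like Kcnj15 (Pearson r = 0.81), Dkk3 (0.79) and Pdzrn4 (0.79), and by Spearman rho the most like Dkk3 (0.85). Dkk3 was most like Crispld2, Calhm5 and Rasl11b (0.88 to 0.90), and Sost like Acta2, Flna and 2210407C18Rik (each 0.95), of which Acta2 encodes the smooth muscle actin used in the SMC gate. Sfrp2 was most like Il11ra1, Adamtsl3 and Ltbp2 (0.86 to 0.87), Sfrp4 like Mmp2, Zfp469 and Gpr153 (0.83 to 0.84), Frzb like Slc7a2, Smoc1 and Ace (0.80 to 0.88), Sfrp1 like Scarb2, Mbtps1 and Aldh1a1 (0.79 to 0.81) and Dkk2 like Prrt4, Pthlh and Ece1 (0.89 to 0.91). Wif1 and Sfrp1 had a Pearson r of 0.085 over these profiles.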

How the data were processed

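The authors aligned reads of Chromium 3′ v3.1 libraries to mm10 with CellRanger (5.0.1 for WT and mgR and 6.0.1 for mgR-LOS per the file headers, 6.0.1 for all per the labels) and deposited raw UMI counts for each gene in each barcode. Kept barcodes had 600 to 5000 genes and no more than 10% of UMIs from mitochondrial genes. The study's methods estimated doublets with DoubleFinder. Here none were removed in the main values, and the removal of 230, 522 and 1295 called doublets in WT, mgR and mgR-LOS was an alternative. Cells were named per 10000 UMIs by at least 100 UMIs of the SMC panel (Tagln, Acta2, Myl9, Tpm2, Cnn1 and Myh11), and 10 of the fibroblast gate list, of 7 EC or of 7 immune markers. Barcodes of more than 1 lineage (114, 389 and 616) were set aside, with 20 UMIs of the fibroblast list as the ceiling in the other classes. Subtype gates lay at 4 to 10 UMIs of their genes, and barcodes past several gates (632, 356 and 541 SMC-like) went to the one exceeded most. Gates were set after the data were seen.

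UMIs were summed per population and library and scaled to CPM. Intervals were exact Poisson for levels, exact conditional binomial for ratios and Clopper-Pearson for shares (scipy 1.17.1, numpy 2.4.6, pandas 2.3.3, Python 3.11.15, scikit-learn 1.9.0, scanpy 1.11.5, matplotlib 3.10.9). Ratios were tested on simulated data. Members, marker and Wnt lists were chosen with earlier results of these data known. Named were all members, of each role of the Wnt list the most abundant genes and those past 1.5-fold, and per member the 3 genes most alike among those with at least 50 CPM in some profile. Likeness used populations of at least 20 barcodes. Alternatives covered cell limits, doublets, gates, clusters within each library, scaling, weighting, low-value limits, thinning to 1000 or 5000 UMIs and a fold of 2.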

Additional observations from a re-analysis of the deposited data

Results flagged for a closer look

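Several antagonists had ratios on opposite sides of 1 in different cell classes under the same contrast, with both intervals clear of 1. None of these differences between classes was tested, since each condition was 1 library, and the intervals cover counting error only. In mgR-LOS over mgR, Wif1 was at 1.74 (1.67 to 1.80) in fibroblast-like against 0.897 (0.837 to 0.962) in SMC-like cells (1.13 with barcodes of a second lineage kept), and Dkk3 at 1.26 (1.23 to 1.30) against 0.855 (0.836 to 0.875). For mgR over WT, Dkk3 had its sides exchanged, at 1.17 (1.15 to 1.204) in SMC-like and 0.605 (0.588 to 0.621) in fibroblast-like cells. The same mgR library is divided by in the first contrast and divided in the second, which favors such an exchange. Wif1 was below 1 in both classes for mgR over WT. Frzb was at 1.33 (1.19 to 1.49) in SMC-like and 0.588 (0.554 to 0.624) in fibroblast-like cells for mgR over WT. Its SMC ratio was 0.925 without barcodes that had a fibroblast gate UMI and 2.21 at WT subtype shares.

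EC-like cells differed from the others for Sfrp2, at 43.5 (7.62 to 1737) for mgR over WT against 0.725 in SMC-like and 0.658 in fibroblast-like cells, with 1 WT UMI behind it, and at 92.3 (16.3 to 3667) for mgR-LOS over WT against 0.795 and 0.538. With up to 20% mitochondrial UMIs these EC-like ratios were 2.37 and 5.04. For mgR-LOS over mgR, Sfrp2 was at 2.12 (1.63 to 2.77) in EC-like and 1.10 (1.07 to 1.13) in SMC-like cells, each of which turned below 1 with other limits on barcodes, and at 0.818 (0.793 to 0.844) in fibroblast-like cells. Frzb was at 7.18 (3.18 to 20.1) for mgR over WT in EC-like cells against 0.588 in fibroblast-like cells, and at 5.06 (2.17 to 14.4) for mgR-LOS over WT against 0.749 in SMC-like and 0.480 in fibroblast-like cells, and over the alternatives these EC-like ratios ran from 3.67 to 18.3 and from 2.03 to 13.2.

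The remaining differences rested on low levels. Sost in EC-like cells was at 2.25 (1.53 to 3.34) for mgR-LOS over mgR and 3.53 (1.94 to 6.92) for mgR-LOS over WT, against 0.851 and 0.773 in SMC-like cells. Its WT and mgR levels in EC-like cells did not exceed those of immune-like cells. Dkk3 was at 2.11 (1.42 to 3.18) for mgR-LOS over mgR in EC-like cells against 0.855 in SMC-like cells. For mgR-LOS over WT, Dkk2 was at 1.87 (1.22 to 2.94) in fibroblast-like against 0.621 (0.406 to 0.952) in EC-like cells, and Sfrp4 at 1.15 (1.05 to 1.27) in fibroblast-like against 0.735 (0.625 to 0.864) in SMC-like cells.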

How the results depend on the processing

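No paired analysis was possible because each condition was 1 library without replicates. The ratio of Wif1 for mgR over WT in SMC-like cells ran from 0.163 to 0.175 over the alternatives of barcode limits, doublets, gates, clusters, scaling and means over barcodes, and was 0.152 at WT subtype shares. That for mgR-LOS over mgR was 1.13 with barcodes of a second lineage kept and 0.835 without barcodes that had a fibroblast gate UMI, an alternative chosen after seeing the data. The count of members past 1.5-fold in SMC-like cells was 2 in each contrast. With a minimum of 50 CPM it was 1, 0 and 1 for mgR over WT, mgR-LOS over mgR and mgR-LOS over WT. With no minimum it was 4 for mgR over WT and 3 for mgR-LOS over mgR. With at most 5% mitochondrial UMIs it was 3 for mgR-LOS over WT. At a fold of 2 it was 0 for mgR-LOS over mgR, and without fibroblast gate UMIs it was 1. In fibroblast-like cells the count was 6 for mgR over WT with 3 for means over barcodes or a fold of 2 and 7 for clusters within each library. It was 2 for mgR-LOS over mgR, with 0 at a fold of 2 and 3 for clusters within each library or no minimum, and 4 for mgR-LOS over WT, with a range of 3 to 5. Fewer genes tested or a wider fold lower such counts by construction, and the cause of the other shifts was not tested. The shares of all genes past the fold are given for the main setting only. The counts under the alternatives are therefore not set against a background. Of 582 other values, 470 moved by less than their counting interval, 108 by more, and 4 crossed 1 where the interval had excluded it. These 4 were Sfrp2 for mgR-LOS over mgR in EC-like cells with 200 to 7000 genes (0.923) and in SMC-like cells with 5% mitochondrial UMIs (0.864) or clusters within each library (0.993), and Frzb for mgR over WT in SMC-like cells without fibroblast gate UMIs (0.925). Ratios whose interval held 1 also crossed it, such as Sost for mgR over WT in EC-like cells (0.878 with clusters within each library), and Sfrp1 (0.739 with means over barcodes) and Frzb (1.12 with 5% mitochondrial UMIs) for mgR-LOS over mgR there. EC-like cells were few, so a WT level there rested on as little as 1 UMI.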
